A study of Populus tremula x Populus alba with 4 samples.

Results

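Flavonoids of plants are built from a product of the phenylpropanoid pathway. Chalcone synthase joins p-coumaroyl-CoA with malonyl-CoA to give a chalcone, chalcone isomerase closes its ring to give a flavanone, and flavanone 3-hydroxylase turns the flavanone into a dihydroflavonol. Dihydroflavonols feed the flavonols, the anthocyanins and the condensed tannins, and condensed tannins are abundant in the bark and leaves of poplars. The genes described here are 8 poplar gene models that stand for these early steps. Of these, 6 are chalcone synthase genes, 1 is a chalcone isomerase gene (Potri.010G213000.1) and 1 is a flavanone 3-hydroxylase gene (Potri.005G113900.1). They were found by ID among the 41335 gene models counted, all 8 were present, and all 8 passed the filter on low counts. The 6 chalcone synthase IDs are Potri.014G145100.1, the pair Potri.001G051500.1 and Potri.001G051600.1, and the run Potri.003G176700.1, Potri.003G176800.1 and Potri.003G176900.1. Within the pair and within the run the ID numbers are consecutive. The files pair no ID with an enzyme name, so the assignment rests on a list of IDs and was not checked against sequence.

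The study compared messenger RNA of bark between wild-type (WT) poplar and poplar transgenic for MIR15, with 2 libraries of each. Both genotypes belong to clone INRA 717-1B4, a hybrid of Populus tremula and Populus alba, raised aseptically on medium that held kanamycin where needed and then grown in soil in a chamber. The labels call the libraries of a genotype biological replicates, but do not give the age of the plants, the MIR15 construct, its promoter or its target, nor whether the MIR15 libraries came from 1 transgenic line or several. P-values therefore measure the spread between these libraries. Bark is a mixture of phloem, fibres, cortex and periderm, and because no marker gene could be named from the files, the label was not checked against markers. In such bulk tissue, fewer cells of a type and less RNA per cell cannot be told apart. Total gene reads per library were between 68453851 and 82789893. Levels are given in CPM, total gene reads per 1000000 reads of the library total, and serve to compare 1 gene between libraries. Gene lengths were not used, so read numbers of different genes do not rank their transcript levels.

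All 8 genes were clearly detected in bark, with at least 4502 reads for each in every library. The libraries of 1 genotype differed more from each other than the means of the genotypes did. In each of the 8 genes the WT library titled 2 was the lowest of the 4 and the MIR15 library titled 2 the second lowest. WT replicate 1 was the highest for 6 genes and MIR15 replicate 1 for the other two. Together the 8 genes took between 0.0695% and 0.151% of a library's reads, the lower value in WT replicate 2 and the higher in WT replicate 1.

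**Figure D1:**
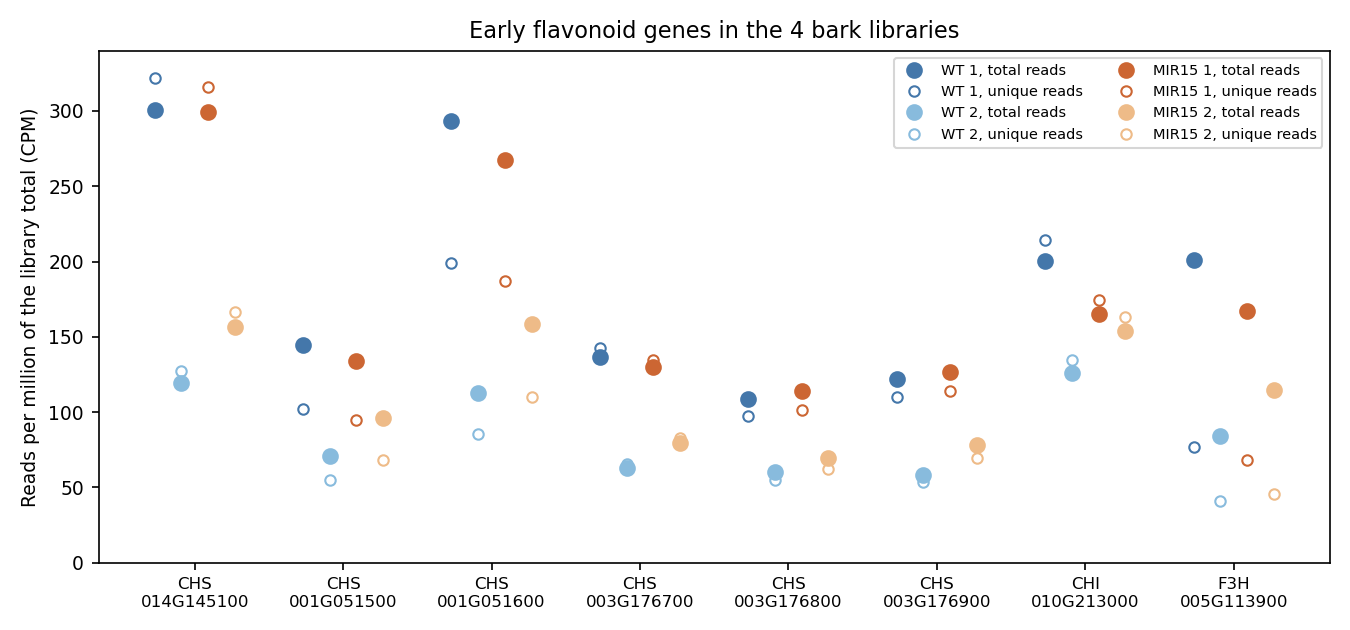
Level of each gene in CPM (y axis, linear, from 0), for the 6 chalcone synthase genes (CHS), chalcone isomerase (CHI) and flavanone 3-hydroxylase (F3H). Filled points are total gene reads and open points unique gene reads, 1 point for each of the 4 libraries; in every gene both libraries titled 1 lie above both libraries titled 2, and the genotypes overlap.

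Chalcone synthase, the entry step of the pathway, came to 1106 and 485 CPM in WT replicates 1 and 2 when the reads of all 6 genes were added. The same sum was 1070 and 639 CPM in MIR15 replicates 1 and 2. WT replicate 1 and MIR15 replicate 1 thus stood close together and above the other two libraries, and the MIR15 libraries lay between those of WT. If each read shared within the family was counted once, the sum does not depend on how such reads were divided among its copies. How they were placed is not given. The sum is therefore that of the deposited total gene reads. Its mean was 795 ± 440 CPM in WT and 855 ± 305 CPM in MIR15 (SD, n = 2 each), and these means differed by less than either SD.

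Each copy was higher in both libraries titled 1 than in both libraries titled 2. Potri.014G145100.1, the copy with most reads over the 4 libraries together, had 301 and 119 CPM in the WT libraries and 299 and 157 CPM in the MIR15 libraries. Potri.001G051600.1 had 294 and 113 CPM in WT and 267 and 159 CPM in MIR15. Its neighbour by number, Potri.001G051500.1, had 145 and 70.7 CPM in WT and 134 and 96.4 CPM in MIR15. In these 3 genes both MIR15 values lay inside the range of the WT libraries. In the run under Potri.003G, Potri.003G176700.1 had 137 and 63.0 CPM in WT and 130 and 79.8 CPM in MIR15. Potri.003G176800.1 had 109 and 60.2 CPM in WT and 114 and 69.6 CPM in MIR15. Potri.003G176900.1 had 122 and 58.4 CPM in WT and 127 and 78.0 CPM in MIR15. The last 2 genes were the ones with their highest value in MIR15 replicate 1, and their groups overlapped as well.

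Chalcone isomerase, the second step, was the steadiest of the 8 genes between libraries. It had 200.2 and 126 CPM in WT and 165 and 154 CPM in MIR15, with both MIR15 libraries inside the WT range. The MIR15 libraries differed by 1.07-fold for this gene, against 1.39-fold to 1.91-fold for the chalcone synthase copies. Flavanone 3-hydroxylase had 201 and 83.9 CPM in WT and 167 and 115 CPM in MIR15, an order and spread like those of chalcone synthase. Groups overlapped for all 8 genes, where 25.1% of the 30975 tested genes had groups that did not overlap.

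For none of the 8 genes was a difference between MIR15 and WT bark found beyond the spread between libraries. In edgeR's quasi-likelihood test on total gene reads, 0 of 8 passed an adjusted p of 0.05, where 0.00323% of all tested genes did (1 gene, not a member). At an unadjusted p under 0.05 the count was also 0 of 8, against 2.47% of all tested genes, and DESeq2 called 0 of 8, against 0.0407% of 34357 genes. Fitted log2 fold changes, MIR15 against WT, were above 0 for 6 genes and below 0 for the other two, with a median of 0.10, where 49.8% of all tested genes were above 0 and their median was under 0.01 in size. The 6 above 0 were the chalcone synthase genes.

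The widest of these intervals belonged to Potri.014G145100.1, with a mean of 210.2 ± 128 CPM in WT and 228 ± 101 CPM in MIR15 (SD, n = 2 each). The fitted log2 fold change was 0.13 ± 0.46 (SE), with a 95% interval from -0.94 to 1.21 and an edgeR adjusted p of 1.00. Potri.003G176900.1 had the largest fold change of the 8, 0.20 ± 0.37 on the log2 scale with an interval from -0.66 to 1.06 (edgeR adjusted p = 1.00). Chalcone isomerase had the narrowest interval. Its mean was 163 ± 52.3 CPM in WT and 159 ± 8.06 CPM in MIR15 (SD, n = 2 each). On the log2 scale the fitted difference was -0.019 ± 0.24 (SE), with an interval from -0.57 to 0.54 (edgeR adjusted p = 1.00). Flavanone 3-hydroxylase had 143 ± 83.1 CPM in WT and 141 ± 37.0 CPM in MIR15 (SD, n = 2 each). Its fitted difference was -0.00054 ± 0.39 (SE) on the log2 scale, with an interval from -0.92 to 0.92 (edgeR adjusted p = 1.00). Over the 8 genes the intervals ended between -0.96 and -0.57 on the lower side and between 0.54 and 1.21 on the upper side. With 2 libraries a genotype, differences within these bounds remain possible, so the test does not show that the genotypes were alike. The bounds are for single genes, unadjusted for the number of genes tested, and are not limits of detection.

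The direction of the genotype difference depended on which library was kept. Without WT replicate 1, all 8 log2 fold changes were above 0, from 0.37 to 0.97, where 51.3% of all genes were, and 7 of 8 had an unadjusted p under 0.05 in edgeR, against 3.27% of all genes tested there that were higher at that p. The smallest adjusted p in edgeR was then 0.472, so none was called, where 0.0252% of all genes were. Without WT replicate 2, all 8 were below 0, from -0.50 to -0.23, as were 48.6% of all genes. Leaving out MIR15 replicate 1 also put all 8 below 0, from -0.43 to -0.087, with 51.7% of all genes. Leaving out MIR15 replicate 2 put all 8 above 0, from 0.051 to 0.54, with 48.7% of all genes. The lone library of a genotype is assumed in these fits to vary like the other group.

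**Figure D2:**
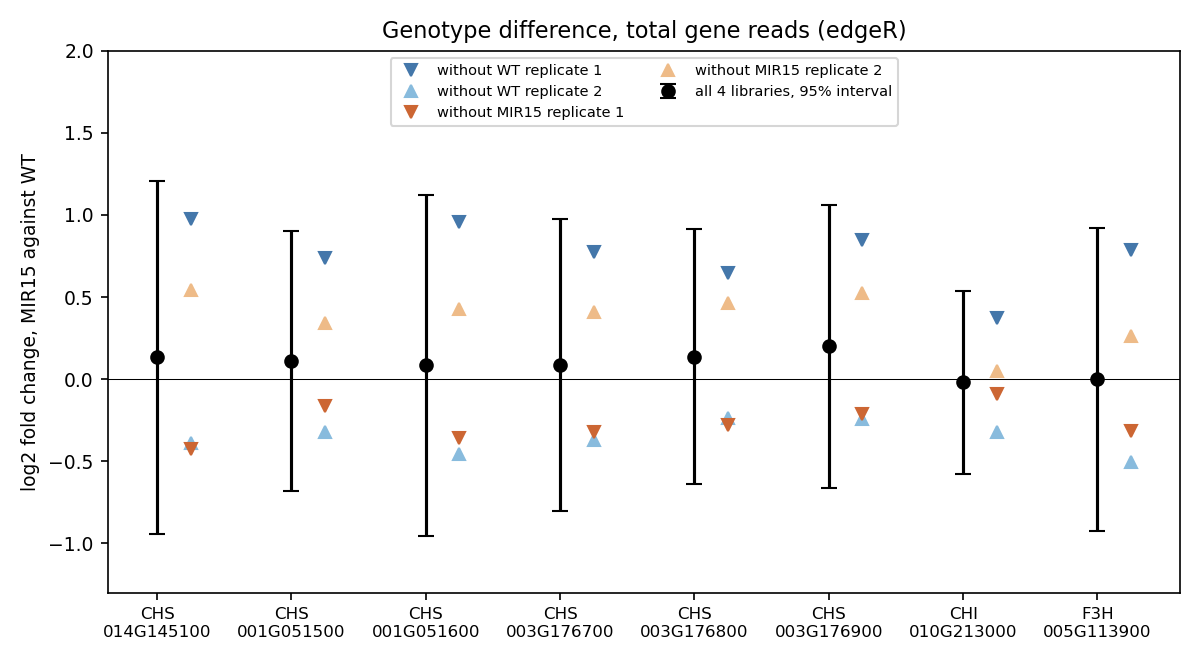
Log2 fold change of MIR15 against WT (y axis) for each gene from edgeR on total gene reads. Black points with bars are the fit on all 4 libraries with its 95% interval, which spans 0 in all 8 genes; triangles are the fits without 1 library, above 0 when WT replicate 1 or MIR15 replicate 2 was left out and below 0 when WT replicate 2 or MIR15 replicate 1 was.

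The ratio between the WT libraries lay above the 95th percentile of genes in all 8, and that between the MIR15 libraries in 6 of the 8. Over the 20097 genes whose mean reached 5 CPM, the ratio of WT replicate 1 to WT replicate 2 had a median of 0.985, with 0.673 and 1.40 as its 5th and 95th percentiles. All 8 early flavonoid genes were above that range, with ratios from 1.59 for chalcone isomerase to 2.60 for Potri.001G051600.1. In 6 of 8 WT replicate 1 was over 2-fold higher, against 0.97% of all genes at that level; the other two were Potri.003G176800.1, at 1.80-fold, and chalcone isomerase. Counting from the lowest ratio, the 8 genes stood between the 97.7th and the 99.7th percentile in WT. In unique reads the count over 2-fold was 4 of 8, against 0.898% of genes of at least 5 unique CPM, since flavanone 3-hydroxylase then had a ratio of 1.89 and Potri.001G051500.1 one of 1.86.

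The MIR15 libraries differed in the same direction by title number. Replicate 1 was over 1.5-fold above replicate 2 in 5 of the 8 genes, against 2.9% of all genes of at least 5 CPM. The highest ratio was 1.91, for Potri.014G145100.1. Flavanone 3-hydroxylase reached 1.46, Potri.001G051500.1 reached 1.39 and chalcone isomerase 1.07. The 5th and 95th percentiles of the MIR15 ratio were 0.680 and 1.39, and the last 2 genes stood inside them, at the 94.9th and the 68.6th percentile. A ratio over 1.5 in both genotypes was seen for 5 of 8, all of them chalcone synthase genes, against 0.438% of all genes. Both libraries titled 1 lay above both libraries titled 2 in all 8 genes, against 18.3% of all genes. No label says that a title number marks plants, days or batches in common, and the numbers in the MIR15 file headers differ from those in the titles, so whether the libraries of 1 number share an origin cannot be told.

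**Figure D3:**
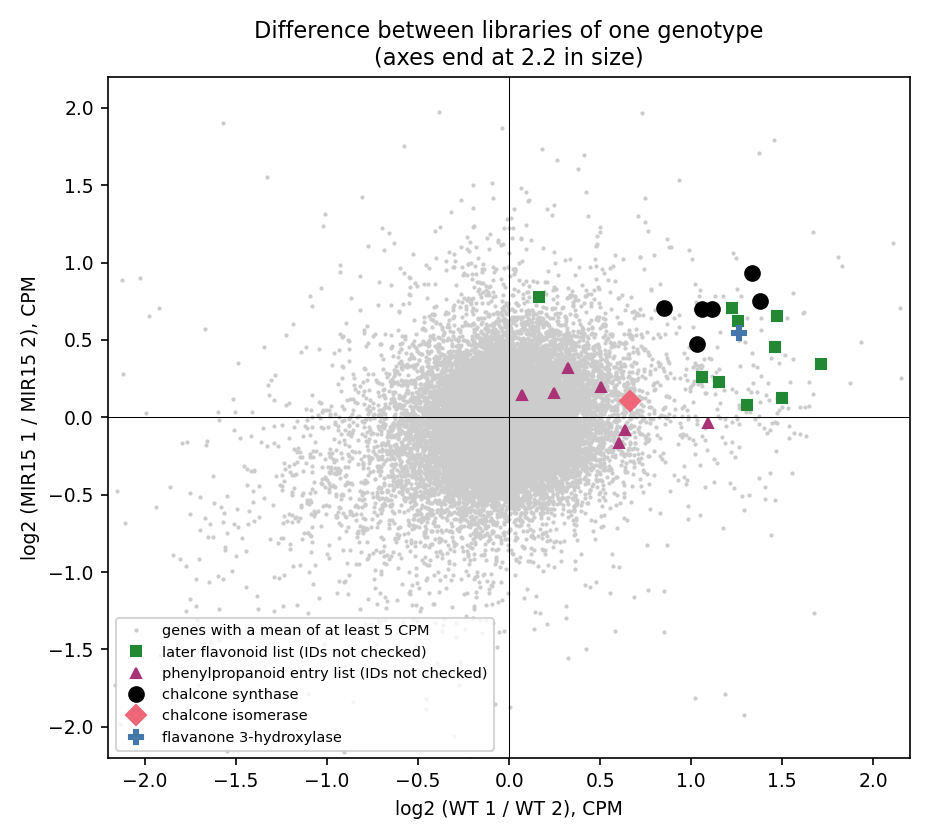
Log2 ratio of replicate 1 to replicate 2 in WT (x axis) and in MIR15 (y axis), from CPM of total gene reads. Grey points are the genes whose mean reached 5 CPM, of which the few beyond 2.2 in size are not drawn; the 8 early flavonoid genes lie to the right, at WT ratios of 1.59 to 2.60, among most of the later flavonoid list.

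The whole-library difference between replicates was much smaller. The WT libraries differed by 0.37 in log2 CPM (root mean square over the 20097 genes) and the MIR15 libraries by 0.35, where the 8 genes gave 1.11 and 0.66. WT replicate 1 and MIR15 replicate 1, of different genotypes, differed by 0.16 over the 8 genes and by 0.28 over the 20097. WT replicate 2 and MIR15 replicate 2 differed by 0.39 over the 8 genes and by 0.32 over the 20097. For pairs of unlike number, WT replicate 1 and MIR15 replicate 2 differed by 0.73 over the 8 genes and by 0.28 over the 20097. WT replicate 2 and MIR15 replicate 1 differed by 1.03 and 0.42. Over the 20097 genes WT replicate 1 was thus about equally far from either MIR15 library.

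Read numbers of the steps kept different proportions in the libraries. For each chalcone isomerase read there were 5.53 and 3.84 chalcone synthase reads in WT replicates 1 and 2, and 6.48 and 4.16 in MIR15 replicates 1 and 2. Flavanone 3-hydroxylase gave 1.01 and 0.665 reads for each chalcone isomerase read in WT, and 1.01 and 0.748 in MIR15. Both proportions were higher in the libraries titled 1 than in those titled 2, whatever the genotype. Chalcone synthase reads for each flavanone 3-hydroxylase read were closer together, at 5.49 and 5.78 in WT and 6.40 and 5.56 in MIR15. In unique reads, those counted at 1 place alone, the order of the libraries was kept for the proportions to chalcone isomerase, except that the lowest flavanone 3-hydroxylase value lay in MIR15. Chalcone synthase then gave 4.55 and 3.28 reads for each chalcone isomerase read in WT and 5.44 and 3.44 in MIR15, and flavanone 3-hydroxylase gave 0.360 and 0.304 in WT and 0.390 and 0.279 in MIR15. Chalcone synthase reads for each flavanone 3-hydroxylase read were then 12.6 and 10.8 in WT and 13.9 and 12.3 in MIR15, so that the order of the WT libraries turned and the values lay further apart. Gene length cancels when 1 such proportion is compared between libraries.

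No single copy held most of the chalcone synthase reads. Potri.014G145100.1 took 26.1% of them on average over the 4 libraries and Potri.001G051600.1 took 24.9%. Potri.001G051500.1 followed with 13.8%, and the 3 genes under Potri.003G took 12.5% (Potri.003G176700.1), 10.9% (Potri.003G176800.1) and 11.8% (Potri.003G176900.1). By ID prefix, the pair under Potri.001G took 38.7%, the run under Potri.003G 35.2% and the gene under Potri.014G 26.1%. Potri.014G145100.1 was first in 3 of the 4 libraries. In MIR15 replicate 2 Potri.001G051600.1 was first, with 24.8% against 24.5%. These are shares of reads, without a correction for the length of each copy.

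Shares of unique gene reads gave another ranking of the loci. Potri.014G145100.1 stood apart at 31.2% and Potri.001G051600.1 took 19.8%, followed by Potri.003G176700.1 with 14.6%. Potri.003G176900.1 had 12.0%, Potri.001G051500.1 11.3% and Potri.003G176800.1 11.1%. The run under Potri.003G then held 37.7% and the pair under Potri.001G 31.1%. Unique reads undercount copies that resemble each other, so the order of the copies depends on which reads are used.

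The make-up of the family differed slightly between libraries, and for Potri.014G145100.1 and Potri.001G051500.1 it again did so by title number. Of all chalcone synthase reads, Potri.014G145100.1 held 27.2% (exact 95% binomial interval 26.9% to 27.5%) in WT replicate 1 and 24.6% (24.2% to 25.1%) in WT replicate 2. In MIR15 it held 28.0% (27.6% to 28.3%) in replicate 1 and 24.5% (24.1% to 24.9%) in replicate 2. Potri.001G051500.1 went the other way, with 13.1% (12.9% to 13.3%) and 14.6% (14.2% to 14.96%) in WT and 12.5% (12.3% to 12.7%) and 15.1% (14.8% to 15.4%) in MIR15. Potri.001G051600.1 held 26.5% and 23.3% in WT but 24.97% and 24.8% in MIR15. Potri.003G176800.1 held 9.81% and 12.4% in WT but 10.6% and 10.9% in MIR15. In both of these copies the MIR15 libraries were closer together than the WT libraries. The binomial intervals cover counting error only. For Potri.014G145100.1 the genotype means, 25.9 ± 1.83% in WT and 26.2 ± 2.43% in MIR15 (SD, n = 2 each), differed by less than the spread. In unique reads its shares were 33.1% and 28.8% in WT and 33.3% and 29.7% in MIR15. They were again higher in the libraries titled 1, but the lowest share lay in WT replicate 2 rather than in MIR15 replicate 2.

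**Figure D4:**
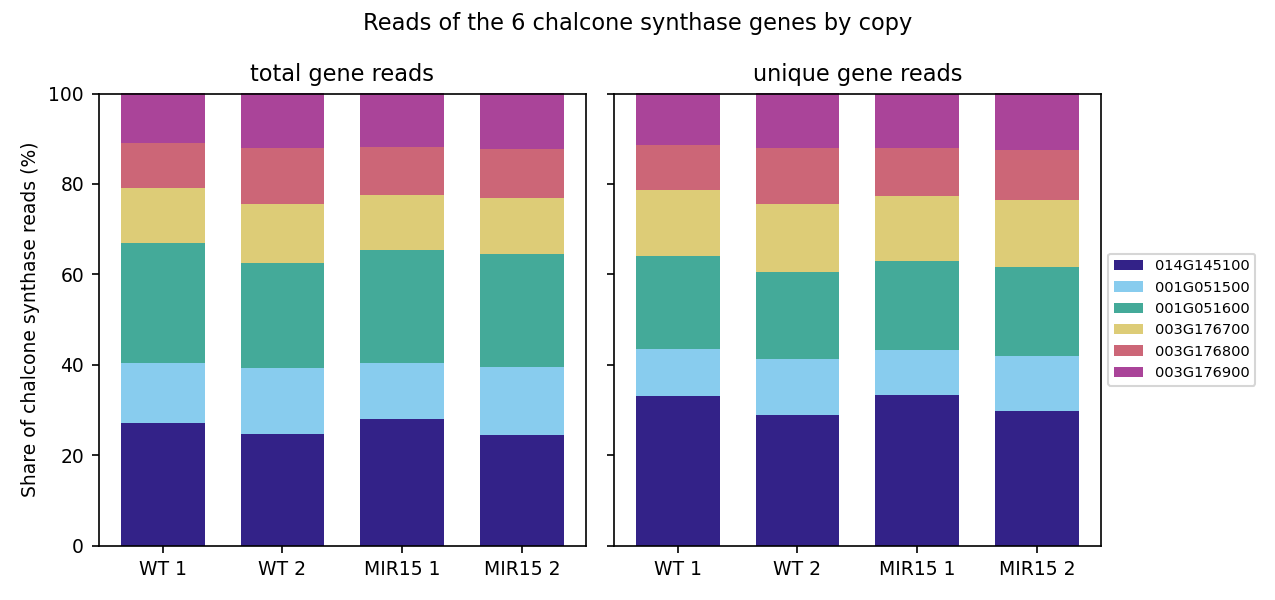
Share of the reads of the 6 chalcone synthase genes taken by each copy (y axis, percent) in the 4 libraries, from total gene reads (left) and unique gene reads (right). Potri.014G145100.1 is at the bottom of each bar, with 24.5% to 28.0% of total and 28.8% to 33.3% of unique reads.

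Reads that matched more than 1 place were spread unevenly over the 8 genes. Chalcone isomerase had none and Potri.014G145100.1 had 1 over the 4 libraries together. In the tandem-numbered chalcone synthase genes the mean share of such reads was 2.13% for Potri.003G176700.1, 15.5% for Potri.003G176800.1, 14.96% for Potri.003G176900.1, 31.8% for Potri.001G051500.1 and 33.5% for Potri.001G051600.1. Flavanone 3-hydroxylase had 60.7%, although only 1 gene of that step is among the 8. Of all tested genes, 4.82% had at least 50% of such reads, and 36.2% had none.

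Flavanone 3-hydroxylase therefore rests on fewer reads of its own than its total implies. Its unique reads came to 5966 and 2952 in WT and to 4408 and 2986 in MIR15, and its other reads to 10705 and 3512 in WT and 7044 and 5029 in MIR15. Scaled to the library total, the shared reads were 2.84-fold higher in WT replicate 1 than in WT replicate 2, and the unique reads 1.88-fold. In MIR15 these ratios were 1.43 and 1.504. The same was true of the pair under Potri.001G in WT: for Potri.001G051600.1 the shared reads differed 3.28-fold and the unique reads 2.32-fold, and for Potri.001G051500.1 they differed 2.58-fold and 1.85-fold. The gap was smaller in Potri.003G176800.1, at 1.95-fold and 1.78-fold, and in Potri.003G176900.1, at 2.29-fold and 2.05-fold. In Potri.003G176700.1 both ratios were 2.17. The size of the WT library difference in flavanone 3-hydroxylase and the pair under Potri.001G is thus smaller in unique reads, but it has the same direction.

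In unique reads the comparison of genotypes gave the same picture. All 8 genes were tested, 0 of 8 passed in edgeR (0 of 30531 genes did, 0%, with 2.52% at an unadjusted p under 0.05), and the log2 fold changes lay between -0.025 and 0.20. Potri.014G145100.1, whose reads were almost all unique, had 322 and 127 unique CPM in WT and 316 and 166 in MIR15. Flavanone 3-hydroxylase had 77.0 and 40.8 unique CPM in WT and 67.99 and 45.4 in MIR15. The fitted difference was -0.025 ± 0.32 (SE) on the log2 scale (edgeR adjusted p = 1.00). Unique CPM is scaled to the library's unique gene reads.

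Genes with neighbouring ID numbers mostly did not share the difference between replicates. Of the 30 nearest IDs, 3 on each side of each of the 5 loci, 21 had a mean that reached 5 CPM. Their median ratio of WT replicate 1 to replicate 2 was 1.00, and 2 of the 21 had a ratio over 2. Both lie beside flavanone 3-hydroxylase by number. Potri.005G113700.1 had 136 and 44.6 CPM in WT and 111 and 69.5 CPM in MIR15, and Potri.005G114000.1 had 75.1 and 28.7 CPM in WT and 64.7 and 41.3 CPM in MIR15. Of their reads, 31.4% and 57.4% matched more than 1 place. The files do not say what these 2 genes encode or which genes the shared reads of flavanone 3-hydroxylase also match. They were singled out after their values were seen.

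Other genes of the pathway were examined by a list of IDs that was written from memory of poplar gene models and could not be checked, so they are given by ID alone. For the later flavonoid and tannin enzymes, 10 of 11 IDs were tested and 0 of 10 passed the test in either direction, where 0.00323% of all tested genes did, with log2 fold changes from -0.22 to 0.13 and a median of -0.067. For the entry enzymes of the phenylpropanoid pathway, which act upstream of chalcone synthase, 7 of 7 were tested and 0 of 7 passed, with a median of 0.039. For MYB transcription factors 3 of 3 were tested and 0 of 3 passed, with a median of -0.11. Among these, Potri.002G173900.1 had a log2 fold change of -0.41 with a 95% interval from -0.96 to 0.14. With so few calls over the whole table, counts of 0 in lists of this size say little about them. The IDs with the smallest p in each listed step were Potri.013G073300.1, Potri.009G069100.1, Potri.005G229500.1, Potri.003G119100.1, Potri.008G116500.1, Potri.004G030700.1, Potri.010G224200.1, Potri.019G130700.1 and Potri.002G173900.1, whose unadjusted p in edgeR ran from 0.123 to 0.893.

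Differences between replicates were large in the later flavonoid list too, and smaller in the entry list. Of the 10 tested IDs of the later list, all 10 were higher in the first WT library, with a median ratio of 2.43, and 9 were over 2-fold higher, beside 0.97% of all genes of at least 5 CPM. In MIR15 all 10 were higher in replicate 1, with a median ratio of 1.32. Among them, Potri.001G113100.1 had 549 and 199 CPM in WT and 420.0 and 306 CPM in MIR15. In the entry list all 7 were higher in WT replicate 1, with a median ratio of 1.42, and 1 was over 2-fold higher. In MIR15 4 of its 7 were higher in replicate 1, with a median ratio of 1.11 over the list. Of the 20097 genes of at least 5 CPM, 9397 were higher in replicate 1 in WT and 9184 in MIR15, so 4 of 7 says little about the list. The MYB list showed no common direction, with WT ratios of 0.931 (Potri.006G221800.1), 0.806 (Potri.002G173900.1) and 1.71 (Potri.004G088100.1). These are descriptions, and no difference between the lists was tested.

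Likeness to Potri.014G145100.1 was measured as the root-mean-square difference of log2 CPM over the 4 libraries, after centring each gene on its own mean, among 20096 other genes of at least 5 CPM. Nearest were Potri.016G061000.1 (0.046) and Potri.009G034500.1 (0.062), followed by the chalcone synthase gene Potri.001G051600.1 (0.067) as the third. Potri.016G061000.1 had 16.6 and 6.97 CPM in WT and 17.4 and 8.53 CPM in MIR15. The remaining chalcone synthase genes ranked 8 (Potri.003G176700.1), 12 (Potri.003G176900.1), 31 (Potri.003G176800.1) and 32 (Potri.001G051500.1). Flavanone 3-hydroxylase ranked 18 and chalcone isomerase 595. With 4 libraries such ranks describe these libraries alone.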

How the data were processed

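Bark RNA of 2 WT and 2 MIR15 libraries was sequenced in read pairs, per the labels. The authors deposited 2 counts per gene, unique gene reads and total gene reads, both made with CLC per the file headers. They also deposited a DESeq normalised signal, named in the file headers and in the submitters' processing notes. The signal was checked and equals total gene reads times 1 constant per library, so the counts were analysed. Not given in the sources used here are aligner settings, genome build, annotation and how reads with several matches were placed.

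The main test ran on total gene reads in edgeR 4.0.16 and R 4.3.3 (filterByExpr, TMM, quasi-likelihood F test, two-sided, genotype as sole term; 30975 of 41335 genes tested), with p adjusted by Benjamini-Hochberg over all tested genes and called under 0.05. The SE comes from the F statistic. DESeq2 1.42.0 was an alternative. All 8 genes were named by rule, with the smallest p in each listed step and the 3 genes most like the copy with most reads. The genes, lists and tests were chosen with earlier results of these data known. Product-name lists, promoters, proteins and gene lengths were not used here, as no reference was at hand. Figures used matplotlib 3.10.9.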

Additional observations from a re-analysis of the deposited data

How the results depend on the processing

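None of the 8 genes was called in any of the 11 alternatives, and directions held except as follows. Flavanone 3-hydroxylase, at a log2 fold change of -0.00054, turned to 0.0027 with RLE factors, 0.0024 with DESeq2 and 0.11 with the replicate block, and chalcone isomerase turned to 0.021 with the replicate block. Leaving out single libraries turned all 8 genes: the log2 fold change ran from -0.43 to 0.97 for Potri.014G145100.1, -0.32 to 0.74 for Potri.001G051500.1, -0.45 to 0.96 for Potri.001G051600.1, -0.37 to 0.77 for Potri.003G176700.1, -0.28 to 0.65 for Potri.003G176800.1, -0.24 to 0.85 for Potri.003G176900.1, -0.32 to 0.37 for chalcone isomerase and -0.50 to 0.79 for flavanone 3-hydroxylase. The median over the 8 genes then ran from -0.35 to 0.78, and the log2 ratio of summed chalcone synthase reads, 0.10 with all libraries, from -0.37 to 0.82. The cause was not tested.

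The count of called genes over the whole table was 1. It was 14 with DESeq2, 0 in unique reads (768 of 30531 at an unadjusted p under 0.05), 0 when genes under a mean of 5 CPM were left out (389 of 20097), and 0 to 8 without single libraries. Mean shares of chalcone synthase reads moved in unique reads to 31.2% for Potri.014G145100.1, 11.3% for Potri.001G051500.1, 19.8% for Potri.001G051600.1 and 14.6% for Potri.003G176700.1. Shares per coding length were not run, since no lengths were used. Alternatives chosen after seeing the data were TMM factors for the chalcone synthase sum (0.12), replicate ratios in unique reads, in which no gene changed direction but 4 rather than 6 of 8 were over 2-fold in WT, and unique reads without single libraries.

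A replicate block by title number raised the edgeR calls to 120 genes, with 0 of the 8 among them. Libraries with the same number deviated together over the 20097 genes (correlation of deviations 0.27). With 2 libraries a genotype, however, deviations of replicate 2 mirror those of replicate 1, so the second of the 2 pairs adds no independent comparison. No label gives the number a meaning either, so it was not taken to pair the samples.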
